A study of Mus musculus with 4 samples.

Results

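The genes described here are the cytosolic ribosomal proteins of mouse cochlear neurons. They were taken by symbol, as every row named Rpl or Rps with a number, or Rplp0 to Rplp2, leaving out the kinases named Rps6k and rows marked as pseudogenes. The rule found 85 of the 18143 genes in the count tables, and these genes held 4754815 of 86572150 unique molecular identifiers (UMIs, 1 per captured RNA molecule), or 5.49%. By symbol, 52 carry a large-subunit name and 33 a small-subunit name, among them Rpl7l1 and Rps19bp1, an assembly factor and a binding partner of Rps19, which the rule took by name alone. All 85 were found in the GENCODE annotation of GRCm38, spread over 19 chromosomes, with 84 annotated as protein-coding and Rpl6l as a processed pseudogene.

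Cells came from 4 untreated wild-type male mice at 9 weeks of age, all of the CBA/CaJ strain. The modiolus, the bony core of the cochlea that holds the spiral ganglion, was dissected from the temporal bones together with adjoining limbus, sulcus and organ of Corti tissue, and the tissue of each mouse made 1 droplet library with reads from the 3′ end of polyadenylated RNA. The authors' deposited annotation places each of 6713 cells in 1 of 5 populations. These are the spiral ganglion neurons of type IA (2384 cells), IB (1625 cells) and IC (2104 cells), which are 3 subtypes of the type I neurons that contact inner hair cells, the type II neurons that contact outer hair cells (95 cells), and cells labelled putative spiral ganglion neurons (505 cells). No group differs in genotype, treatment or age, so every comparison below is between populations of the same animals. The labels were drawn from the same cells that are measured here, so they are not independent of the UMIs.

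A ribosome joins a small subunit, which holds the messenger RNA and reads its codons, with a large subunit, which forms the peptide bond. Each subunit is a core of ribosomal RNA covered by ribosomal proteins, most of them present in 1 copy per ribosome, so their messenger RNAs are usually produced in step. Many of these messengers begin with a run of pyrimidines (C or T in the gene), the 5′ terminal oligopyrimidine tract, through which the kinase complex mTORC1 and the RNA-binding protein Larp1 set how strongly they are translated. Neurons carry ribosomes in the cell body and also along axons.

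Promoters of 64 of the 85 genes were found in a RefSeq table on GRCm38.p6, which gave 76 windows because some genes have several listed starts. Windows of 8 genes on which the results below turn are printed so that the pairs of related genes can be compared. Each covers 15 bases before and 15 from the listed start, 5′ to 3′ on the gene's strand, and capitals mark its longest unbroken run of C or T.
Rps27, chr3:90213634-90213663, minus strand: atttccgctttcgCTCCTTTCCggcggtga
Rps27l, chr9:66946071-66946100, plus strand: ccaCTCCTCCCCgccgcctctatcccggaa
Rpl36a, chrX:134585639-134585668, plus strand: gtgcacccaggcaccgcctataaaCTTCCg
Rpl36al, chr12:69184053-69184082, minus strand: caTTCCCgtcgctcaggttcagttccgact
Rpl7l1, chr17:46782642-46782671, minus strand: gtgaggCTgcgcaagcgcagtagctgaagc
Rps6, chr4:86857353-86857382, minus strand: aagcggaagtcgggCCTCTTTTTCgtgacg
Rps4x, chrX:102189377-102189406, minus strand: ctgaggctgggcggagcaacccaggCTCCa
Rpl22l1, chr3:28805493-28805522, plus strand: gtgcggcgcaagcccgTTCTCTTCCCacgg
The run spanned the listed start or lay directly after it in Rps27, Rps6 and Rpl22l1, lay wholly before it in Rps27l and Rpl36al, and was 2 bases long in Rpl7l1. A run of at least 8 C or T in this window was present in 36.8% of the 76 windows of ribosomal protein genes and in 12.0% of all 32851 windows of the table. Over the whole stretch from 250 bases before to 50 after the start and on both strands, CCGGAAGT, a motif of the ETS family, was present in 14.5% of the ribosomal windows against 3.89% of all windows, and AAGATGGC, a motif of YY1, in 10.5% against 2.75%. A motif and a run can share bases, and a match describes letters only.

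Depth differed between mice and populations. The 4 libraries held 1238 to 2232 cells and 15151343 to 27309045 UMIs, with medians of 10072 to 17834 UMIs per cell. Type II sums rested on 15 to 34 cells and 131668 to 546679 UMIs, against 318 to 827 cells in each type I sum, so the values of type II neurons carry more counting error. Among markers of the annotated types, 7 of 7 for type II were called higher in type II than in type I, 5 of 5 for IA in IA against IC, 4 of 4 for IC in IC against IA, and 4 of 4 for IB in IB against IC. A cell barcode was shared between mice in 26 cases.

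The summed share of UMIs in the 85 genes was lowest in type IA and highest in type II neurons. In mice 1 to 4 it was 4.74%, 5.37%, 4.61% and 4.83% in IA (4.89% ± 0.334, SD, n = 4) and 5.21%, 5.52%, 5.18% and 5.47% in IB (5.34% ± 0.173). It was 5.76%, 6.12%, 5.70% and 5.99% in IC (5.89% ± 0.197). In every mouse the order was IA below IB below IC, and the 4 values of IC lay above all values of IA and of IB. Type II sums held 6.62%, 9.20%, 7.96% and 10.3% (8.51% ± 1.57), above every type I sum. Putative neurons held 5.96%, 6.45%, 5.61% and 8.57% (6.65% ± 1.33), and their lowest value lay below all 4 of IC. A share says nothing about RNA per cell. These sums were described and not tested.

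**Figure D1:**
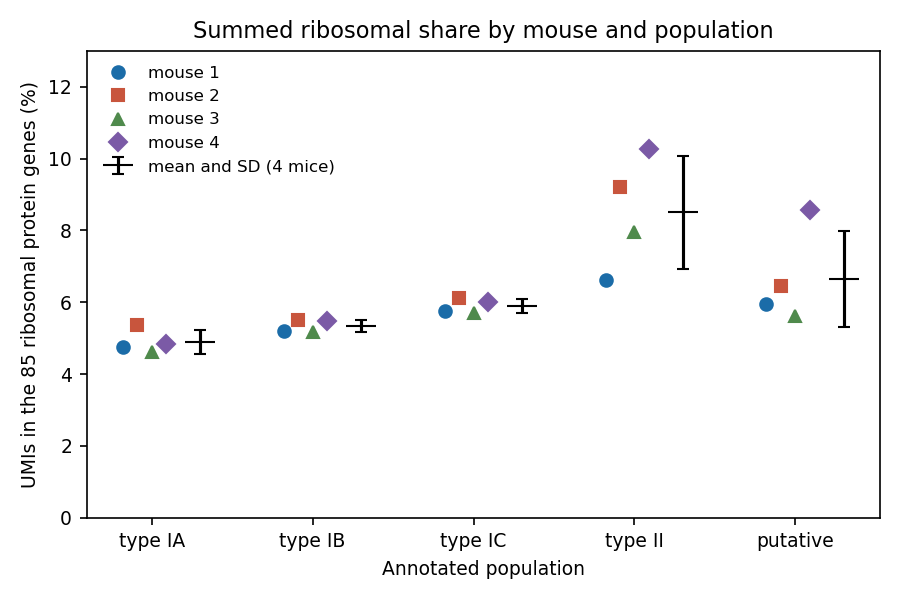
Percent of all UMIs that fell in the 85 ribosomal protein genes, for each mouse (symbols) in each annotated population, with the mean and SD of the 4 mice in black. Type IA, IB and IC rise in that order in each mouse, type II sums lie between 6.62% and 10.3%, and the putative sum of mouse 4, at 8.57%, stands above those of the other mice.

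Shares per cell overlapped between populations. The middle 50% of cells lay between 4.02% and 5.36% in IA, 4.57% and 5.80% in IB, 5.20% and 6.34% in IC, and 6.02% and 10.8% in type II. Across type I cells of 1 mouse the share rose with the cell's depth, with Spearman correlations of 0.58 to 0.61 in IA, 0.48 to 0.59 in IB and 0.36 to 0.49 in IC. In type II cells these correlations were -0.61, 0.19, 0.09 and 0.50 in mice 1 to 4, and in putative neurons 0.11 to 0.23. The ribosomal share fell with the share of mitochondrially encoded UMIs, with correlations of -0.55 to -0.80 over the type I populations. These correlations share the cell's total as denominator and are given without a test. Median depth also rose from IA (8628 to 16762 UMIs per mouse) to IC (12843 to 19884 UMIs per mouse). With cells thinned to 4215 UMIs each, which left out 671 shallower cells, the mean shares were 4.70%, 5.20%, 5.78%, 8.74% and 6.43% in IA, IB, IC, type II and putative neurons. Among cells of 10000 to 20000 UMIs, the median cell of each mouse held 4.70% to 5.39% in IA, 5.06% to 5.57% in IB, 5.54% to 6.27% in IC and 9.75% to 10.9% in type II. The order of IA, IB, IC and type II was the same in each of the 4 mice in both of these settings. The mitochondrial share moved the opposite way, with median cells at 9.36% to 11.2% in IA, 6.80% to 7.48% in IC and 4.31% to 6.83% in type II. Taken over UMIs outside mitochondrially encoded genes, the mean ribosomal shares were 5.46%, 5.89%, 6.37%, 9.08% and 7.38% in IA, IB, IC, type II and putative neurons.

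**Figure D2:**
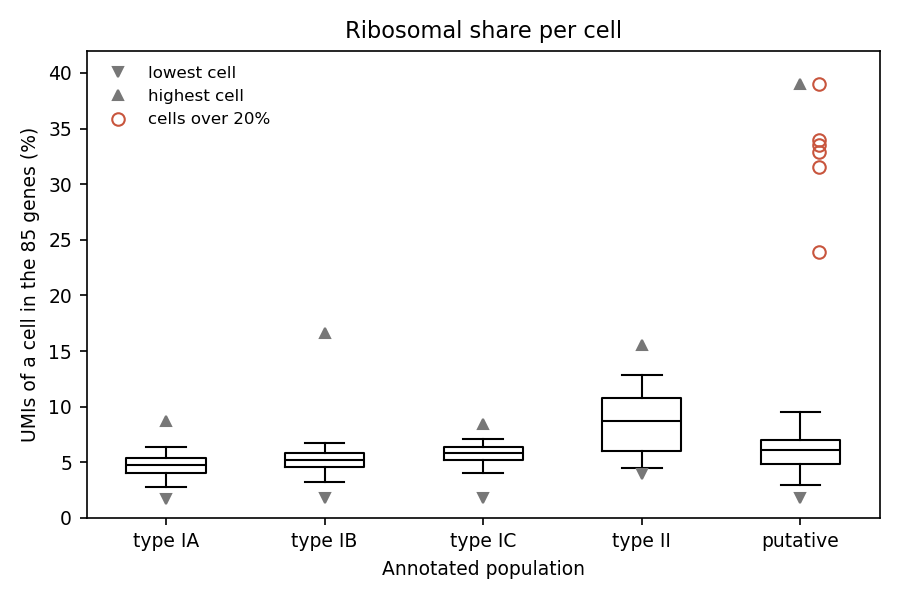
Share of each cell's UMIs in the 85 genes by population. Boxes span the middle 50% of cells with the median as a line, whiskers reach the 5th and 95th percentiles, grey triangles mark the lowest and highest cell, and red circles mark the 6 putative cells above 20%, from 23.9% to 39.0%.

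Type II neurons had more UMIs of nearly all ribosomal proteins than type I neurons. Of the 83 genes that passed the filter on low counts, 77 were called higher and 0 lower at a Benjamini-Hochberg adjusted p under 0.05 in edgeR's quasi-likelihood test, where 12.0% of all 13005 genes tested were called higher and 11.7% lower. At an unadjusted p under 0.05 the counts were 78 and 0, and DESeq2 called 78 higher and 0 lower. The median log2 difference of the 83 genes was 0.55, against -0.05 over all genes tested. Both subunits took part, with 46 of 50 genes of large-subunit name called higher (median 0.53) and 31 of 33 of small-subunit name (median 0.60). In 44 of the 83 genes every type II sum lay above all type I sums, a separation that 7.40% of all genes tested showed.

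The gene with the largest difference was Rpl3, a large-subunit protein that reaches towards the site of peptide bond formation (chromosome 15, 80077791 to 80091868). It measured 1094, 1443, 1186 and 1963 counts per 1e6 UMIs (CPM) in the type II sums of mice 1 to 4, against 501 to 712 CPM in the type I sums. No type II value overlapped the type I range, and the log2 difference was 1.16 (SE 0.11, adjusted p = 9.51e-08). Rpl10, which joins the large subunit late in its assembly (chromosome X, 74270812 to 74273135), measured 803, 1208, 1017 and 1354 CPM against 436 to 621 CPM in type I. Its log2 difference was 0.98 (SE 0.10, adjusted p = 1.08e-09), and its groups did not overlap.

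In the small subunit, Rps2, which lies near the channel where messenger RNA enters (chromosome 17, 24718116 to 24721929), measured 885, 987, 1063 and 1259 CPM in type II sums and 446 to 582 CPM in type I sums. Rps4x (chromosome X, 102184941 to 102189394) measured 777, 1154, 856 and 1281 CPM against 397 to 643 CPM. Their log2 differences were 0.95 (SE 0.11, adjusted p = 5.20e-07) and 0.89 (SE 0.12, adjusted p = 3.07e-06), with every type II sum above every type I sum in both. Rps23, a protein of the decoding centre, measured 1262, 1792, 1514 and 2086 CPM against 740 to 1082 CPM, and its log2 difference was 0.82 (SE 0.08, adjusted p = 3.84e-13). Rps27, a zinc-finger protein of the small subunit, measured 1066, 1420, 1219 and 1886 CPM against 611 to 939 CPM, with a log2 difference of 0.79 (SE 0.08, adjusted p = 3.61e-14). Mouse 4 had the highest and mouse 1 the lowest type II value in all 6 of these genes.

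**Figure D3:**
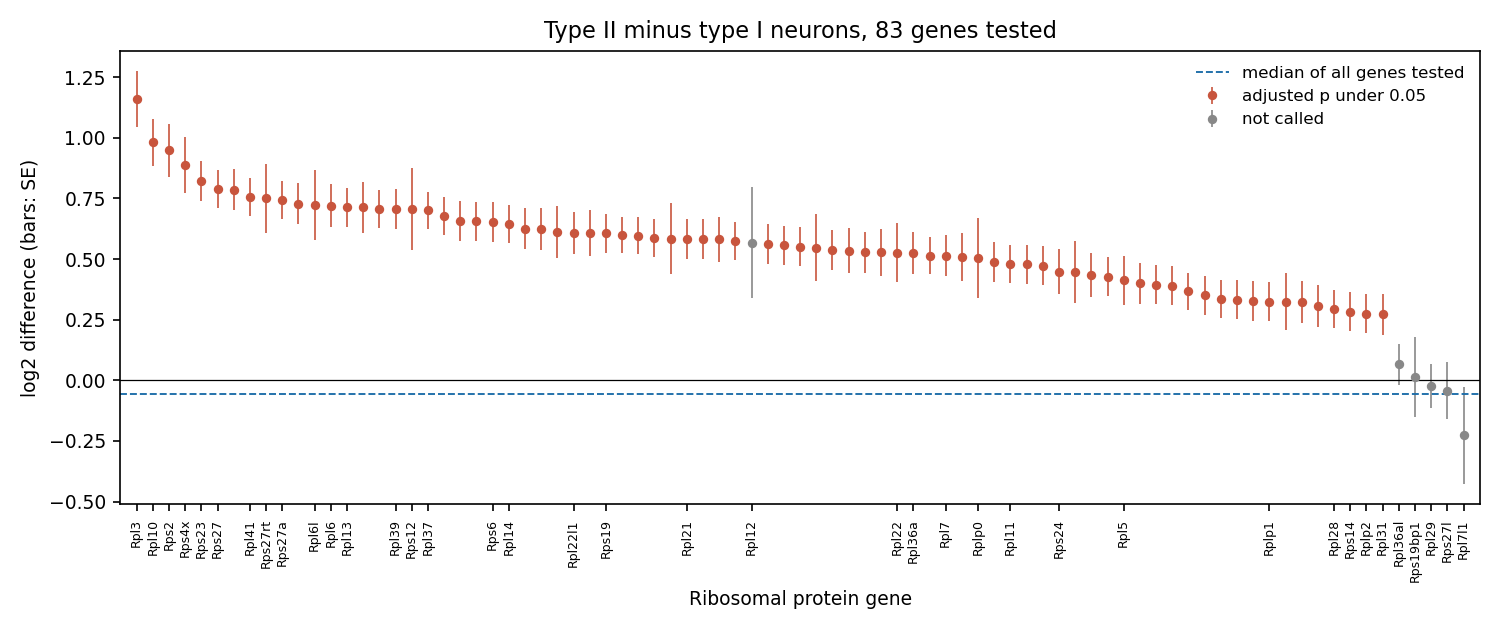
Log2 difference between type II and type I neurons for each of the 83 genes tested, ordered by size, with the SE of edgeR's fit as bars and names for genes described in the text. Red points passed an adjusted p of 0.05, grey points did not, and the dashed line is the median of all 13005 genes; Rpl3 is highest at 1.16 and Rpl7l1 lowest at -0.23.

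Among proteins of the ribosomal stalk, which recruits elongation factors to the large subunit, Rplp1 and Rplp2 differed less than the median of 0.55. Rplp0 and Rpl12 lay near that median. Rplp0, the base of the stalk, measured 617, 653, 712 and 754 CPM in type II sums and 401 to 508 CPM in type I sums (log2 difference 0.50, SE 0.16, adjusted p = 0.0402). That call was lost with mouse 1 left out (adjusted p = 0.162), with mouse 3 left out (0.0890) and with cells rich in the glial gene Fabp7 left out (0.354). It was kept without the putative cells above 20% ribosomal UMIs (log2 difference 0.50, adjusted p = 2.10e-08), which are in neither group compared. Rplp1 and Rplp2, the acidic proteins that form its tip, had log2 differences of 0.32 (SE 0.08) and 0.28 (SE 0.08) and passed the threshold, with type II values of 1052 to 1563 CPM and 821 to 1109 CPM. The call of Rplp2 was lost without mouse 3 (adjusted p = 0.0774) and without the Fabp7 cells (log2 difference 0.17, adjusted p = 0.235). Rpl12, which sits at the stalk base, measured 238, 387, 274 and 327 CPM in type II against 164 to 219 CPM in type I, a separation without overlap. Its log2 difference of 0.57 did not pass (SE 0.23, adjusted p = 0.0987) but passed, among other settings, without mouse 4 (adjusted p = 6.87e-05) and in DESeq2 (9.14e-05). Without mouse 1, 2 or 3 it did not pass (adjusted p = 0.205, 0.240 and 0.231). Without the same putative cells above 20%, Rpl12 passed at nearly the same log2 difference (0.56, adjusted p = 6.09e-07). The spread fitted for a gene is shared with the putative sums, so a missed call need not reflect the type II values alone.

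Rpl5 and Rpl11, which bind 5S ribosomal RNA and, when free of ribosomes, the p53 regulator Mdm2, were both called higher in type II neurons. Rpl5 measured 251, 273, 287 and 323 CPM against 164 to 237 CPM in type I (log2 difference 0.41, SE 0.10). Rpl11 measured 966, 1261, 1186 and 1436 CPM against 699 to 973 CPM (log2 difference 0.48, SE 0.08), and here mouse 1 overlapped the type I range. Rps6, the substrate of the S6 kinases, measured 1092, 1580, 1209 and 1618 CPM against 631 to 1022 CPM (log2 difference 0.65, SE 0.08, adjusted p = 1.47e-09). Rpl41, Rpl13 and Rpl37, 3 of the 5 genes with the highest mean level, were called higher with log2 differences of 0.76, 0.71 and 0.70. Levels are UMIs near the 3′ end and are not set per transcript length.

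The 6 genes not called higher were Rpl12 and 5 others whose log2 differences lay near 0. Rpl7l1, a nucleolar assembly factor related to Rpl7, measured 51.2, 38.0, 38.4 and 22.7 CPM in type II and 41.0 to 53.0 CPM in type I (log2 difference -0.23, SE 0.20). Rps27l, a near copy of Rps27 known as a p53 target, measured 145, 273, 210 and 218 CPM against 179 to 214 CPM (log2 difference -0.04, SE 0.12), so its type II values lay on both sides of the type I range. Rpl29, a large-subunit protein, measured 401, 600, 471 and 509 CPM against 397 to 530 CPM (log2 difference -0.02, SE 0.09). Rps19bp1, a binding partner of Rps19 that the symbol rule took by name and that is no ribosomal protein, had a log2 difference of 0.01 (SE 0.17). Rpl36al, a related copy of Rpl36a, measured 547, 486, 464 and 464 CPM against 391 to 504 CPM (log2 difference 0.07, SE 0.08).

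When the summed UMIs of the 85 genes served as the library size, 4 genes stood above the ribosomal total in type II neurons and 9 below it, where 5.64% of all genes were called higher and 42.8% lower on that scale. Those above were Rpl3 (log2 difference 0.59, SE 0.11), Rpl10 (0.42, SE 0.11), Rps2 (0.38, SE 0.11) and Rps4x (0.33, SE 0.11). Those below were Rpl7l1 (-0.75, SE 0.22), Rps27l (-0.57, SE 0.13), Rpl29 (-0.57, SE 0.12), Rps19bp1 (-0.52, SE 0.18), Rpl36al (-0.51, SE 0.13), Rpl31 (-0.30, SE 0.12), Rplp2 (-0.29, SE 0.12), Rps14 and Rpl28 (both -0.28, SE 0.12). The middle 50% of the 83 genes lay between -0.15 and 0.09. Leaving out 1 mouse at a time gave 3 to 8 genes above and 4 to 11 below, with 8 above without mouse 4, and 5 and 4 below without mice 2 and 3. Rpl3 and Rpl10 stayed above and Rpl7l1, Rps27l and Rpl29 below in each of 7 alternatives, which left out each mouse in turn or the cells rich in Fabp7, kept only type II cells with Prph, or thinned all cells. Rps2 lost its call without mouse 3, and Rps4x lost it without mouse 2 and without the cells rich in Fabp7.

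The share was not even among type II cells. Prph, which encodes the filament protein peripherin and marks type II neurons, had a UMI in 58 of the 95 type II cells. In mouse 1 the median ribosomal share was 10.8% in the 10 cells with Prph and 5.08% in the 13 cells without it. In mouse 3 it was 9.93% in 20 cells and 4.74% in 14 cells. In mouse 2 the medians were 9.92% and 7.13%, and in mouse 4 they were 9.62% and 8.95%. Cells without Prph lay in the range of the type I sums in mice 1 and 3 and above it in mice 2 and 4. Their median depths were 24352, 10319, 10701 and 10758 UMIs, against 14615, 8635, 10805 and 6933 UMIs for the cells with Prph, so they were deeper in mice 1, 2 and 4. With only the Prph cells as type II, the summed share was 10.5%, 10.6%, 10.0% and 10.6%, the calls numbered 76, and the median log2 difference was 0.79. This split uses a type II marker of the same cells and was made after earlier results were known.

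Satellite glia enclose the bodies of these neurons, and their markers were higher in type II and putative sums than in type I sums. The 10 listed genes summed to 6673 to 11796 CPM in type II sums, 9388 to 10448 CPM in putative sums and 1889 to 2407 CPM in type I sums, with none of the 10 at 0. Of the 10, 8 were called higher in type II and 9 in putative neurons than in type I. With all cells of 3 or more UMIs of the glial gene Fabp7 left out (178 cells, of them 38 type II), 55 ribosomal genes were called higher in type II, their median log2 difference was 0.40, and 0.57 to 1.03 remained for the 6 genes with the largest differences. The summed type II share was then 5.92%, 9.06%, 7.13% and 11.02% in mice 1 to 4. Schwann cell markers summed to 2199 to 3927 CPM in type II and 2972 to 3680 CPM in type I sums, with 0 of 10 called higher. Neuron markers, 12 genes, summed to 15724, 10830, 11440 and 10556 CPM in the type II sums of mice 1 to 4, where every type I sum held at least 14281 CPM, and 7 of the 12 were called lower and 3 higher in type II. The 5 markers of type IA neurons summed to 3051, 554, 1299 and 391 CPM in type II, so mouse 1, which had the lowest type II ribosomal share, had the highest sums of both lists. The part of these markers in the ribosomal differences was not tested beyond the fits named here. The 6 hair cell markers summed to 45.4 to 94.8 CPM in type II and 98.7 to 309 CPM in type I sums. Only 2 of the 6 passed the filter on low counts, with 0 called higher and 1 lower in type II. Myo7a, Ocm, Pou4f3 and Gfi1 were at 0 in type II cells, where a 0 allows up to 2.33 CPM.

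Within type I neurons, ribosomal protein genes were lower in IA than in IC. Of the 83 genes, 58 were called lower and 0 higher in edgeR, where 16.0% of all genes were called lower and 16.3% higher. At an unadjusted p under 0.05 the counts were 69 and 0, and DESeq2 called 44 and 0. The median log2 difference was -0.24, against -0.01 over all genes tested. Genes of large-subunit name gave 33 calls of 50 and those of small-subunit name 25 of 33. In 35 of the 83 genes every IA sum lay below every IC sum, against 12.8% of all genes. The order IA below IB below IC held in all 4 mice for 41 of the 83 genes, against 5.20% of all genes, and it held in 77, 42, 77 and 79 genes in mice 1 to 4, so mouse 2 was the one with fewer genes in order.

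Rps6 had the largest difference between these subtypes. It measured 699, 796, 646 and 631 CPM in IA, 832, 872, 806 and 763 CPM in IB, and 959, 1022, 924 and 871 CPM in IC. All 4 mice followed that order, every IA value lay below every IC value, and the log2 difference between IA and IC was -0.43 (SE 0.08, adjusted p = 2.26e-05). Rps4x measured 427, 504, 397 and 399 CPM in IA and 592, 643, 559 and 550 CPM in IC (log2 difference -0.42, SE 0.11, adjusted p = 0.00365), and without mouse 1 its adjusted p was 0.0825. Rps27a, which is made as a fusion with ubiquitin, measured 740, 880, 738 and 748 CPM in IA and 1009, 1112, 1013 and 1027 CPM in IC (log2 difference -0.40, SE 0.08). Rpl14, Rpl21 and Rps24 each had a log2 difference of -0.37 and did not overlap between IA and IC.

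The steps from IA to IB and from IB to IC were each about as large as the other and seldom passed alone. Between IA and IB, 4 of 83 genes were called lower in IA (8.33% of all genes) and 0 higher (7.48%), with a median of -0.11. These were Rpl21 (log2 difference -0.25, SE 0.08, adjusted p = 0.0111), Rps6 (-0.23, SE 0.08, adjusted p = 0.0434), Rpl6l (-0.21, SE 0.07, adjusted p = 0.0190) and Rps27rt (-0.19, SE 0.06, adjusted p = 0.0364). At an unadjusted p under 0.05 they numbered 13 lower and 0 higher. None of these 4 calls remained without mouse 3 or in DESeq2, 2 calls were made without mouse 1 and 2 without mouse 2, and 8 without mouse 4. Between IB and IC only Rpl5 was called lower, which measured 184, 197, 204 and 187 CPM in IB and 229, 237, 232 and 213 CPM in IC (log2 difference -0.23, SE 0.06, adjusted p = 0.00388). The backgrounds there were 5.57% lower and 6.44% higher, the median was -0.12, and the adjusted p of Rpl5 was 0.0626 without mouse 2 and 0.0707 in DESeq2. At an unadjusted p under 0.05 the counts were 14 lower and 0 higher, and without mouse 4 the count of calls was 17. In cells thinned to the same depth the counts of genes called lower were 18 for IA against IB and 26 for IB against IC, and in cells of 10000 to 20000 UMIs they were 13 and 30. The shares of all genes were not counted at an unadjusted p or in these settings. Such counts therefore cannot be set against a background.

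The count of 58 moved with which mouse was left out, with the block, with the number of cells and with putative cells outside the comparison. It was 27 without mouse 3, 40 to 67 without any other mouse, 18 in a fit without the mouse as a block, and 0 with 15 cells in every sum, where the median was -0.18 and 18 genes had an unadjusted p under 0.05. In cells thinned to the same depth 74 genes were called lower, and 70 in cells of 10000 to 20000 UMIs. Against the ribosomal total, Rps27l was the 1 gene of 83 that was called, higher in IA by 0.31 (SE 0.11, adjusted p = 0.0194). The share of all genes called on that scale was not counted for IA against IC. The level of Rps27l itself was 184, 214, 195 and 200 CPM in IA and 188, 201, 186 and 194 CPM in IC, nearly the same in both. The members' calls of type II against type I and of IA against IC share the type I sums, and no overlap between them is drawn.

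**Figure D4:**
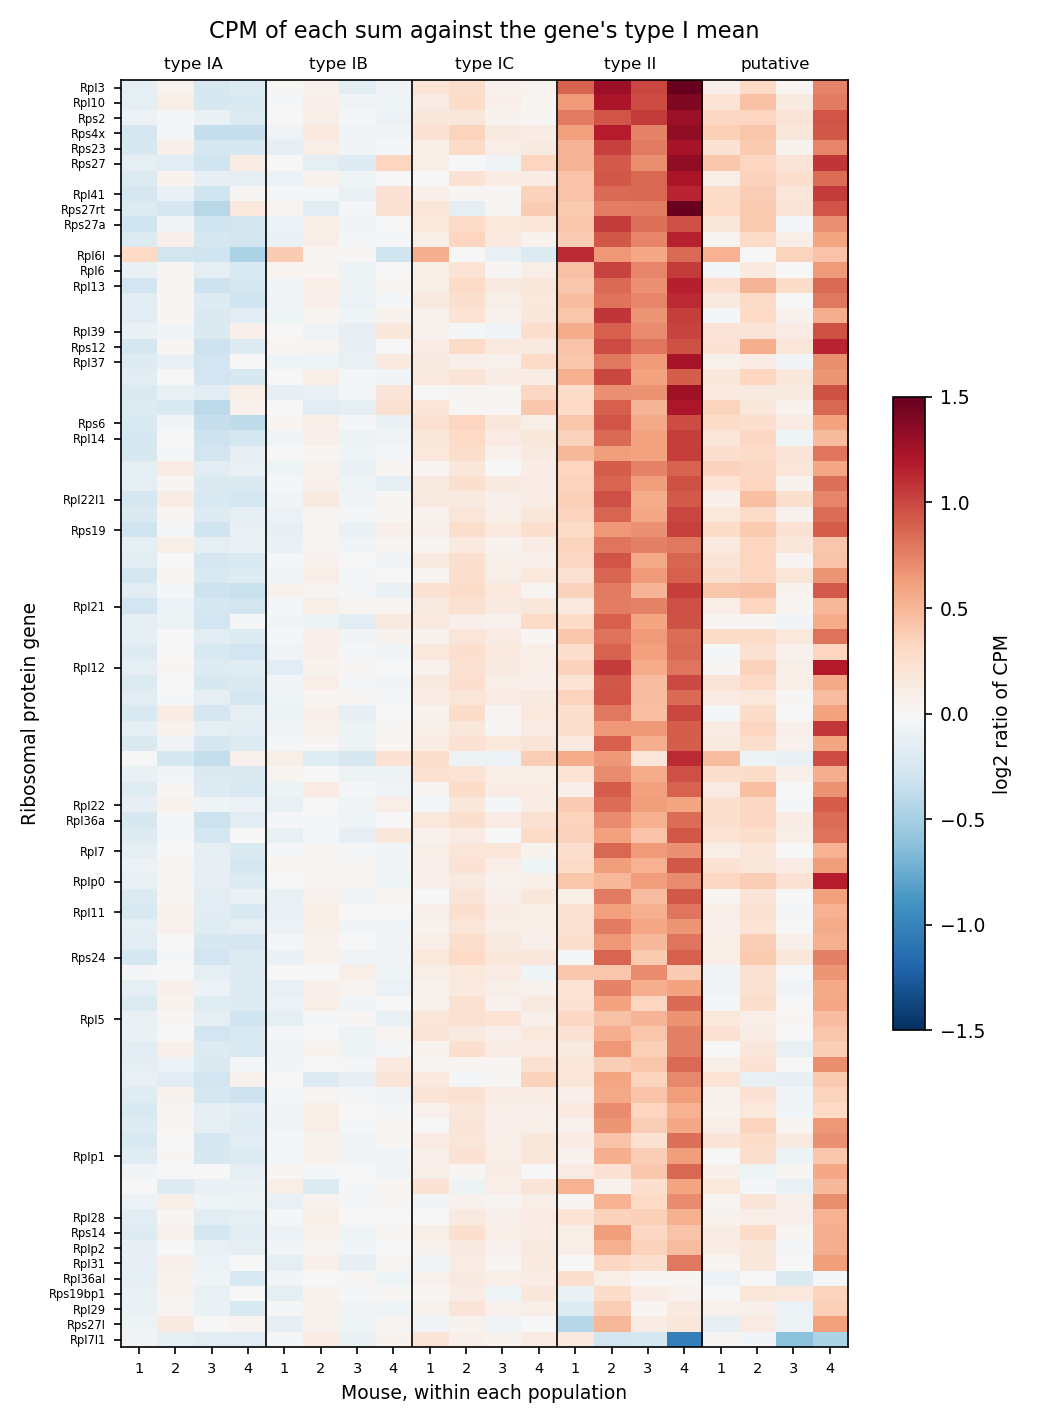
Log2 ratio of CPM in each of the 20 sums to the gene's mean over the type I sums, for the 83 genes tested, ordered by the difference between type II and type I and named where the text describes them; columns are mice 1 to 4 within each population. Type IA columns are mostly pale blue except mouse 2, type IC columns are mostly pale red, type II columns of mice 2 to 4 and the putative column of mouse 4 are darkest, and the last 5 rows, Rpl36al to Rpl7l1, are pale or mixed in type II.

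Putative neurons lay above type I neurons in most ribosomal genes, with mouse 4 setting much of the difference. Of 83 genes, 68 were called higher and 0 lower, where 14.3% of all genes were called higher and 9.25% lower. The counts were 75 and 1 at an unadjusted p under 0.05, and 71 and 0 in DESeq2. The median log2 difference was 0.29. Only 3 genes had every putative sum above every type I sum, against 6.39% of all genes. Rps12, the gene with the largest difference, measured 295, 371, 289 and 561 CPM against 205 to 312 CPM in type I sums (log2 difference 0.56, SE 0.12, adjusted p = 0.00293). Rplp0 measured 571, 595, 538 and 1045 CPM against 401 to 508 CPM, without overlap (log2 difference 0.56, SE 0.13, adjusted p = 0.00537). Rpl41, the smallest ribosomal protein, measured 1932, 2040, 1803 and 3268 CPM against 1289 to 2018 CPM (log2 difference 0.49, SE 0.08, adjusted p = 1.50e-07). In all 3 genes the value of mouse 4 was the highest, and for Rps12 and Rpl41 the lowest putative values lay inside the type I range. Without mouse 4 the count was 39 of 83 and the median 0.16, whereas leaving out another mouse gave 60 to 68.

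In mouse 4, 2 putative cells held 18.9% and 7.76% of all ribosomal UMIs of that sum of 145 cells. They were among 6 putative cells with more than 20% of their UMIs in the 85 genes, 4 from mouse 4 and 1 each from mice 2 and 3. No cell of another population passed 20%, the highest being 16.6% in IB. Their neuron markers summed to 876 to 3841 CPM, whereas each type I sum held at least 14281 CPM. One of them, with 47928 UMIs, had 777 UMIs of Pf4, 35 of Gp1bb and 25 of Itga2b, genes known from megakaryocytes and platelets. Another had 237 UMIs of Ccl5, a chemokine gene of lymphocytes, and another 76 of Car1, a carbonic anhydrase gene of red cell precursors. These genes were chosen after their values were seen. Without the 6 cells the putative share of mouse 4 was 6.51%, the mean was 6.11%, 44 genes were called higher, and the median was 0.17.

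Markers of supporting and mesenchymal cells were also mostly higher in the putative population. They summed to 1422 to 3616 CPM against 1003 to 1970 CPM in type I sums, with 9 of 11 called higher and none of the 11 at 0. Other lists did not rise in this way. Of 10 Schwann cell markers 0 were called higher and 2 lower, of 2 hair cell markers tested 0 and 1, and of 9 blood and immune markers tested 2 and 0. Neuron markers summed to 9780 to 13343 CPM in putative sums, with 9 of 12 called lower than in type I. Putative cells were the shallowest, with medians of 3459 to 8924 UMIs. The part of these cells and markers in the ribosomal differences was not tested beyond the fits named here, and with 15 cells in every sum 21 genes were called higher.

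Several ribosomal genes have a related copy, and the pairs behaved differently across populations. The ratio of Rps27l to Rps27 UMIs was 0.270, 0.320, 0.319 and 0.246 in IA, 0.235, 0.269, 0.257 and 0.207 in IC, and 0.136, 0.193, 0.172 and 0.116 in type II, so that in each mouse type II was lowest. Rpl36al and Rpl36a were close to equal in type I (mean ratios of 0.992 to 1.12), while the ratio was 0.990, 0.681, 0.736 and 0.593 in type II. Rpl7l1 to Rpl7 measured 0.0895 ± 0.00580 in IA and 0.0836, 0.0407, 0.0482 and 0.0276 in type II, with mouse 1 apart from the rest. In these 3 pairs the partner rose in type II and the related copy did not. A lower ratio was not particular to type II, since the putative means of 0.201, 0.773 and 0.0669 also lay below every type I mean of these pairs. Rpl22l1 exceeded its partner Rpl22 in every population, with mean ratios of 2.48 in IA and 2.84 in type II, and both were called higher in type II (0.61 and 0.53).

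**Figure D5:**
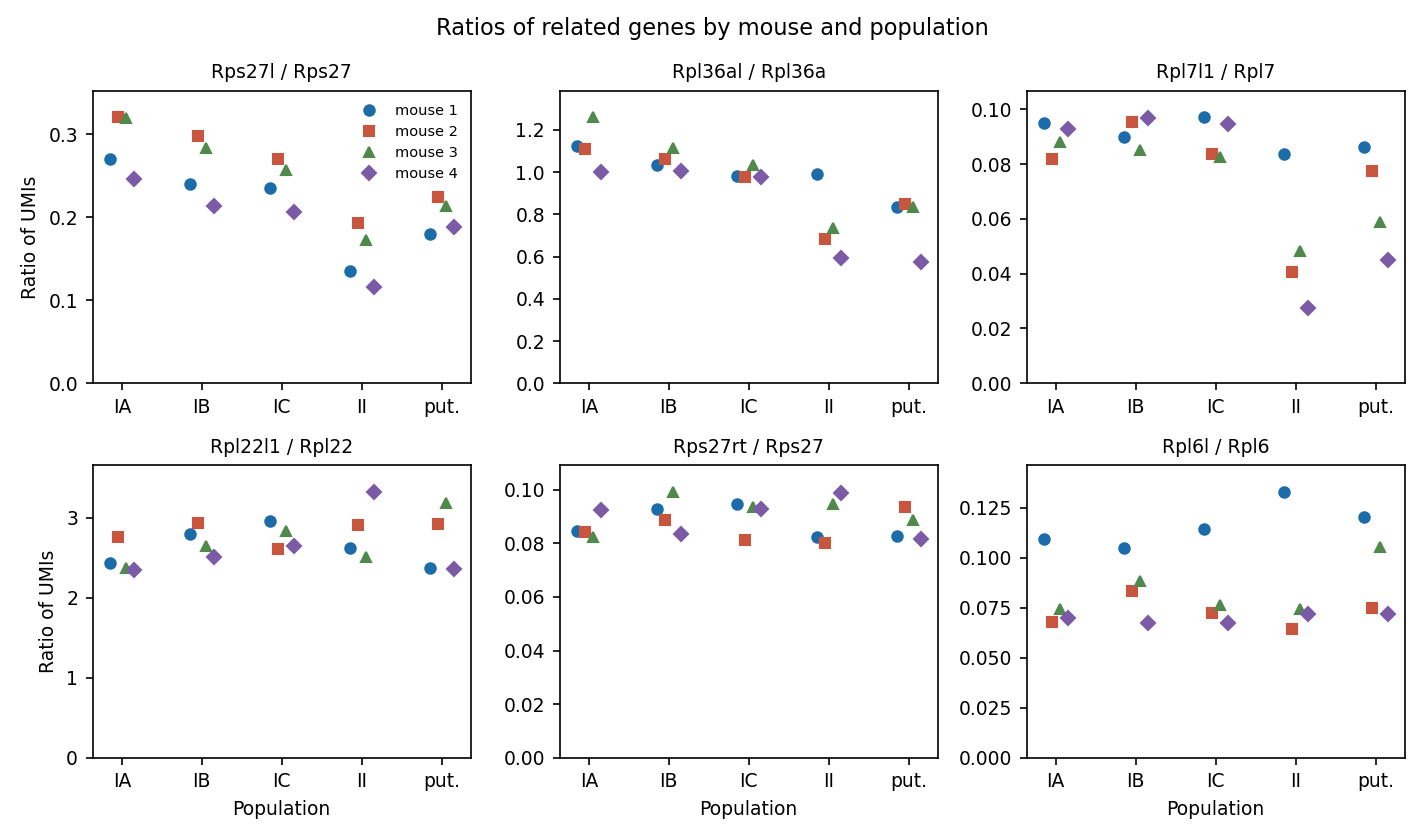
Ratio of UMIs of a related copy to its partner gene, per mouse (symbols) and population (put., putative), for 6 pairs. The ratios of Rps27l, Rpl36al and Rpl7l1 are lower in type II sums than in most type I sums, while those of Rpl22l1, Rps27rt and Rpl6l show no such step.

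Rps27rt and Rpl6l had mean ratios to their partners that differed by less than 1 SD between IA and type II. Rps27rt to Rps27 measured 0.0859 ± 0.00448 in IA and 0.0890 ± 0.00910 in type II, and Rpl6l to Rpl6 measured 0.0803 ± 0.0196 and 0.0860 ± 0.0316 (SD, n = 4). The ratio of Rpl6l was higher in mouse 1, at 0.109 in IA and 0.133 in type II, than in mice 2 to 4, at 0.0677 to 0.0745 and 0.0645 to 0.0746. Between IA and IB, where both copies were called lower, Rpl6 was not called (log2 difference -0.10, SE 0.09, adjusted p = 0.544). Both are near-identical copies, so reads could be split between copy and partner and their own levels are uncertain. Rpl39l, the testis form of Rpl39, had 4 UMIs in all cells together, and Rpl3l, the striated muscle form of Rpl3, had 31, and neither passed the filter. Rpl3l was at 0 in 1288798 type II UMIs, which allows up to 2.33 CPM, above its type I level of 0.424 CPM, so a difference was not detectable at this depth.

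Of ribosomal proteins whose symbols fall outside the rule, Fau and Rpsa were called higher in type II neurons and Gnb2l1 was not. Fau, which encodes a fusion of a ubiquitin-like domain and Rps30, measured 1268, 1732, 1573 and 2177 CPM in type II against 1077 to 1328 CPM in type I, with mouse 1 inside that range (log2 difference 0.39, SE 0.08). Rpsa, the small-subunit protein also known as a laminin receptor, had a log2 difference of 0.39 (SE 0.12) and passed as well, a call that was lost without mouse 1 (log2 difference 0.47, adjusted p = 0.122), without the Fabp7 cells (0.28, adjusted p = 0.309) and with only Prph cells as type II (0.42, adjusted p = 0.131). Gnb2l1, the scaffold protein Rack1, did not pass (0.09, SE 0.21). Rows marked as pseudogenes held 62925 UMIs, equal to 1.32% of those of the members.

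Mitochondria have ribosomes of their own, with proteins named Mrpl and Mrps. Of 77 such genes tested, 22 were called lower and 1 higher in type II than in type I, where 11.7% of all genes were called lower and 12.0% higher, with a median log2 difference of -0.30. Mrpl4 measured 80.5, 53.2, 48.7 and 45.4 CPM against 96.0 to 122 CPM in type I, without overlap (log2 difference -0.92, SE 0.15, adjusted p = 1.25e-06). Between IA and IC, 10 were called higher and 20 lower, beside 16.3% and 16.0% of all genes, with a median of -0.04.

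In the list of elongation factors 5 of 13 genes were called higher and 0 lower in type II, beside 12.0% and 11.7% of all genes. Eef1a1, which brings transfer RNA to the ribosome and whose messenger also carries a pyrimidine tract, measured 829, 1139, 997 and 1418 CPM in type II against 354 to 467 CPM in type I (log2 difference 1.37, SE 0.12, adjusted p = 1.09e-08). Between IA and IC it went opposite to the ribosomal genes, with 420, 467, 395 and 403 CPM in IA and 369, 389, 359 and 354 CPM in IC, a difference that did not pass (0.21, SE 0.11, adjusted p = 0.140). Eef2k, the kinase that inhibits elongation factor Eef2, had a log2 difference of 1.26 in type II (SE 0.29), which was lost without the Fabp7 cells (adjusted p = 0.392). Of 34 initiation factors, 9 were called higher and 1 lower in type II, against the same backgrounds of 12.0% and 11.7%.

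Of 43 genes of ribosome assembly tested, 2 were called higher (Nop14 and Nhp2) and 2 lower (Nop56 and Tsr3) in type II, beside 12.0% and 11.7% of all genes, with a median of 0.01. Between IA and IC, 10 were called lower and 1 higher, beside 16.0% and 16.3% of all genes. Among those lower was Polr1d, a subunit shared by RNA polymerases I and III, which fell by 0.69 on the log2 scale (SE 0.05, adjusted p = 2.70e-19). Of 19 genes that control ribosomal protein production, 2 were called higher and 2 lower in type II, again beside 12.0% and 11.7% of all genes. Those higher were Eif4ebp2, a repressor of translation that binds Eif4e (log2 difference 2.01, SE 0.53, adjusted p = 0.00230), and Deptor, an inhibitor of Mtor (1.32, SE 0.51, adjusted p = 0.0490), each with 12 UMIs in the type II cells. The call of Eif4ebp2 was lost without mouse 3 (adjusted p = 0.162) and without the Fabp7 cells (0.818), and that of Deptor without mouse 1 (0.164), 3 (0.0584) or 4 (0.438). Those lower were Mtor and Larp1 (log2 difference -0.50, SE 0.19, adjusted p = 0.0476), and Larp1 lost its call without mouse 2 (0.0843), 3 (0.404) or 4 (0.183). Mtor, the kinase of mTORC1, had only 20 UMIs in the type II cells, so its type II values rest on few counts. It measured 22.0, 30.4, 5.12 and 9.09 CPM in type II against 35.1 to 42.3 CPM in type I. All 4 values lay below the type I range (log2 difference -1.39, SE 0.28, adjusted p = 5.37e-05). Myc, a transcription factor that acts on ribosomal genes, measured 5.79, 4.92, 5.15 and 4.58 CPM in IA and 11.8, 12.6, 11.9 and 11.2 CPM in IC (log2 difference -1.19, SE 0.15, adjusted p = 1.05e-10).

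Among the promoters, the length of the longest C or T run in the window around the listed start did not separate the genes by how they changed. A gene with several listed starts counted by its longest run. The run could lie wholly before the start, as in Rps27l, so the length of the terminal oligopyrimidine tract itself was not compared. In type II against type I, 27 genes with a run of at least 8 had a median log2 difference of 0.55 and 35 genes with a shorter run 0.56. Between IA and IC the medians were -0.24 in both. Rps27 and Rps27l, printed above, both carry a run of 9, while Rpl36a and Rpl36al both have a run of 5. Listed starts can differ from the starts used in these cells, which were not measured.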

How the data were processed

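Droplet 3′ RNA-seq of 4 mice was used as deposited. Per the labels, the libraries are 10x Genomics v2, and per the submitters' processing notes Cell Ranger 2.0.1, Seurat 1.4 and the build mm10 were used. Raw UMI counts were deposited as 1 table per mouse, with gene symbols and cells, and the other deposited file used holds text labels of each cell's population, made by the authors in a way not given in the sources used here. Cells were used as labelled, with no doublet caller run, and the labels do not say how the authors treated doublets. Counts were summed per mouse and population (20 sums). edgeR 4.0.16 (R 4.3.3) was run with filterByExpr (13005 genes kept), TMM scaling, a robust quasi-likelihood fit and the mouse as a block, with Benjamini-Hochberg adjustment over all genes tested. The pairing comes from the animals, since the 5 populations of a mouse share 1 library. Type I is the unweighted mean of IA, IB and IC. The SE is the log2 difference over the root of F. The fit was tested on simulated data with the same spread in every sum and no difference between mice. Unequal spreads between populations were therefore not covered. CPM values are UMIs per 1e6 UMIs of a sum, without TMM scaling. All p-values are two-sided. Shares of all genes called were counted in the main fit at the adjusted threshold. For type II against type I they were also counted against the ribosomal total. Other counts, at an unadjusted p or in alternatives, have no such share beside them. DESeq2 1.42.0 and the other alternatives are given in the closing part.

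Each mouse gives 1 library, and with the mouse as a block the populations are compared within 4 animals. The fit draws the spread behind a p-value largely from other genes, with a median of 66.8 prior degrees of freedom beside 12 residual ones. A p-value therefore does not rest only on how that gene varied among the 4 animals. The spread fitted for a gene is shared by all 20 sums, including populations outside a comparison. For the genes tested, the median SD as a percent of the mean was 19.2% in type II and 21.0% in putative sums. It was 8.41%, 4.95% and 5.46% in IA, IB and IC, so 1 shared spread does not describe each population. The 85 genes, the gene lists and the tests were chosen with earlier results of these data known. Genes named follow a rule: up to 6 highest and 6 lowest called genes per comparison with the same direction in 4 mice and at least 20 UMIs, the 5 genes with the highest and the 5 with the lowest level, related copies, and up to 4 genes per pathway list, some of which are not reported here. Exceptions, chosen after their values were seen, are Rpl29, Rpl31, Rps14, Rpl28, the partners of related copies and the marker genes of the 6 cells.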

Additional observations from a re-analysis of the deposited data

Results flagged for a closer look

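In 15 of 155 groups of 4 mice examined, 1 mouse stood far from the other 3 relative to the whole range. Chance gives such a gap in about 1 group in 20 where groups are independent. These groups come from the same 4 libraries and are not independent, so 15 of 155 cannot be set against that rate. Most of the 15 were mouse 2 in type I neurons. The summed share of mouse 2 in IA was itself 5.37%, against 4.61% to 4.83% in the other mice. In IA, mouse 2 was high for Rpl13 (1131 CPM), Rpl14 (1040 CPM), Rpl21 (501 CPM), Rpl22l1 (537 CPM), Rplp2 (765 CPM), Rps23 (930 CPM) and Rps27a (880.1 CPM). In IB it was high for Rplp1 (1055 CPM) and Rps4x (564 CPM), and in IC for Rps12 (312 CPM) and Rps24 (884 CPM). Mouse 4 stood apart in IC for Rpl41 (2018 CPM) and in putative neurons for Rpl41 (3268 CPM), Rplp0 (1045 CPM) and Rps2 (989.8 CPM). Rows marked as ribosomal pseudogenes, which the symbol rule leaves out, held 62925 UMIs, of which 23861 were in Rps18-ps3.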

How the results depend on the processing

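The 77 ribosomal genes called higher in type II than in type I neurons numbered 55 to 78 in all alternatives tried, 71 to 77 of them with 1 mouse left out, and 76 without the mouse as a block. The same 4 animals give all populations, which is the pairing that the block uses. Without the block, calls numbered 48 in putative against type I, 18 in IA against IC, 0 in IA against IB and 0 in IB against IC. The putative count was 39 to 68 with 1 mouse left out, 21 with 15 cells in every sum, 41 in cells of 10000 to 20000 UMIs, 44 without the 6 cells above 20%, and 37 without these and mouse 4.

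For IA against IC the count was 27 to 67 with 1 mouse left out, 0 with 15 cells in every sum and 74 without the 6 cells. For IA against IB it was 0 to 8 with 1 mouse left out, 0 in DESeq2, 18 in thinned cells, 0 with 15 cells in every sum, 13 in cells of 10000 to 20000 UMIs and 10 without the 6 cells. For IB against IC it was 0 to 17 with 1 mouse left out, 2 without TMM, 0 in DESeq2, 4 without a filter, 26 in thinned cells, 0 with 15 cells in every sum, 30 in cells of 10000 to 20000 UMIs and 12 without the 6 cells. Against the ribosomal total, 3 to 8 genes lay above and 4 to 11 below with 1 mouse left out, 13 and 21 with only Prph cells as type II, 13 and 15 in thinned cells, and 3 and 3 without the Fabp7 cells. Mean shares outside mitochondrially encoded genes were 5.46%, 5.89% and 6.37% in IA, IB and IC, those with ribosomal proteins outside the symbol rule added were 5.53% in IB and 6.10% in IC, and the type II share of Prph cells was 10.4%. The cause of these changes was not tested, except that 15 cells per sum leave fewer UMIs.

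Of 4696 values of the genes reported here under alternatives, 4155 kept their direction and side of the threshold, and no ribosomal gene was called in the opposite direction in any alternative. Log2 differences that changed sign were those of Ddit4 in putative neurons (-0.17 without the Fabp7 cells, -0.56 in cells of 10000 to 20000 UMIs), Eif3m in putative neurons (-0.024 in thinned cells) and, with 15 cells in every sum, Eef1b2 (0.029, IB against IC), Eif3m (0.038), Polr1c (0.088) and Rpl36al (0.11, all IA against IC). The depth range, the cut at 20% and the fits against the ribosomal total were chosen after seeing the data.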
